A study of Mus musculus with 6 samples.

Results

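The 26 genes described here make cholesterol or control how much of it a cell makes. They were chosen by name for their known roles in the pathway, with earlier results of these data known, out of the 56305 genes in the deposited table. Other genes of the pathway were not analysed here. All 26 were among the 15430 genes with enough reads to be compared. Of these genes, 4 encode the SREBP2 control machinery (Srebf2, Scap, Insig1 and Insig2). A further 7 encode enzymes of the mevalonate arm (Acat2, Hmgcs1, Mvk, Pmvk, Mvd, Idi1 and Fdps), and 11 encode enzymes from squalene to cholesterol (Fdft1, Sqle, Lss, Cyp51, Tm7sf2, Msmo1, Nsdhl, Hsd17b7, Ebp, Sc5d and Dhcr7). The last 4 encode proteins that move, store or limit the uptake of sterol (Mylip, Stard4, Soat1 and Soat2). The genes were measured in whole liver of 3 WT mice and 3 Vps15LKO mice by RNA-seq, with 1 library per liver, in a study of how class 3 PI3K acts on transcription and the liver clock. Vps15LKO mice (AlbCre+;Vps15 f/f) have lacked Vps15, a subunit of class 3 PI3K that regulates the lipid kinase, in the liver since the albumin promoter switched on Cre, which acts mainly in hepatocytes, so that most other cells of the tissue keep the gene. The labels call the controls WT and give no further allele. All mice were males of 5 weeks, fed ad libitum and collected at ZT6, 6 h after lights on, so the data hold 1 time of day.

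The liver is a main site of cholesterol synthesis. Acetyl-CoA is built into mevalonate and then into isoprenoid units, which are joined to squalene. Squalene is closed into lanosterol and trimmed and reduced to cholesterol. SREBP2, encoded by Srebf2, is held in the membrane of the endoplasmic reticulum together with its escort Scap. When membrane sterol is low, Scap carries it to the Golgi, where proteases release the part that enters the nucleus and raises the genes of the pathway. When sterol is high, the Insig proteins hold Scap back. Insig1 is itself a target of SREBP2, whereas Insig2 is not and has a daily rhythm in liver. LXR, a receptor for oxidized sterols, acts at the other end of the scale and raises Mylip and sterol export genes.

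The libraries held between 16137093 and 18110223 reads on genes. The deposited values are read counts divided by 1 DESeq2 size factor per library, called normalized counts below. Size factors lay between 0.742 and 0.801 in the WT and between 1.23 and 1.41 in the Vps15LKO libraries, so that the same share of the reads gives a lower normalized count in Vps15LKO livers. Dividing by the read total instead moved the log2 fold change of the median gene from −0.017 to 0.70, a shift of 0.72, and directions that depend on this choice are named with the gene. Pik3r4, which encodes Vps15, had 508, 573 and 459.7 in the WT against 341, 362 and 355 in the Vps15LKO livers (log2 fold change −0.54, SE 0.11, adjusted p = 0.00207 in limma). Its log2 fold change was 0.19 with equal read totals, and reads of the deleted part were not counted apart. The livers also differed in cell markers. The 8 hepatocyte markers took 125064 to 130888 RPM (the usual unit of reads scaled to the library total) in WT and 62836 to 83023 RPM in Vps15LKO libraries. Of these markers 7 were lower and Alb, although its livers did not overlap, was not called (log2 fold change −1.48, SE 1.38). All markers listed for cholangiocytes (7), stellate cells and fibroblasts (8) and proliferation (8) were called higher, and of 8 endothelial markers 4 were lower and 3 higher. With equal read totals 0 of the endothelial markers were called lower and 5 higher. Fewer hepatocytes and less RNA per hepatocyte cannot be told apart in whole liver, and this holds for every fall given below. In the same way, more cells of another type and more RNA per cell cannot be told apart for any rise below. The median log2 fold changes of the macrophage, stellate and cholangiocyte markers were 1.69, 1.85 and 3.13. Each mouse gave 1 library, so the spread is between mice.

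Genotypes were compared with limma on log2(normalized count + 1), and fold changes below are Vps15LKO against WT on that scale. Calls required a fold of 1.2 or more together with an adjusted p under 0.05 (Benjamini-Hochberg over 15430 genes). The cholesterol genes were mostly lower in Vps15LKO liver: 19 of 26 were called lower, 2 higher (Mylip and Soat1) and 5 were not called (Srebf2, Insig2, Acat2, Mvd and Soat2). Over all genes tested, 33.0% were called lower and 33.5% higher. The median log2 fold change of the 26 genes was −0.80, against −0.017 over all genes. In 17 of the 26 genes every Vps15LKO liver lay below every WT liver, and in 3 (Srebf2, Mylip and Soat1) above, against 36.8% and 36.4% of all genes. All 18 enzymes had a negative log2 fold change, 16 of them were called lower and none higher, with a median of −1.03. When read totals were made equal, 12 of the 26 genes were called lower and 4 higher, where 11.1% of all genes were called lower and 66.7% higher. The median of the 26 genes was then −0.079, against 0.70 over all genes, and 9 of 18 enzymes were still called lower and none higher. With quantile normalization 15 of the 26 genes were called lower and 3 higher, against 37.6% and 30.4% of all genes.

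**Figure D1:**
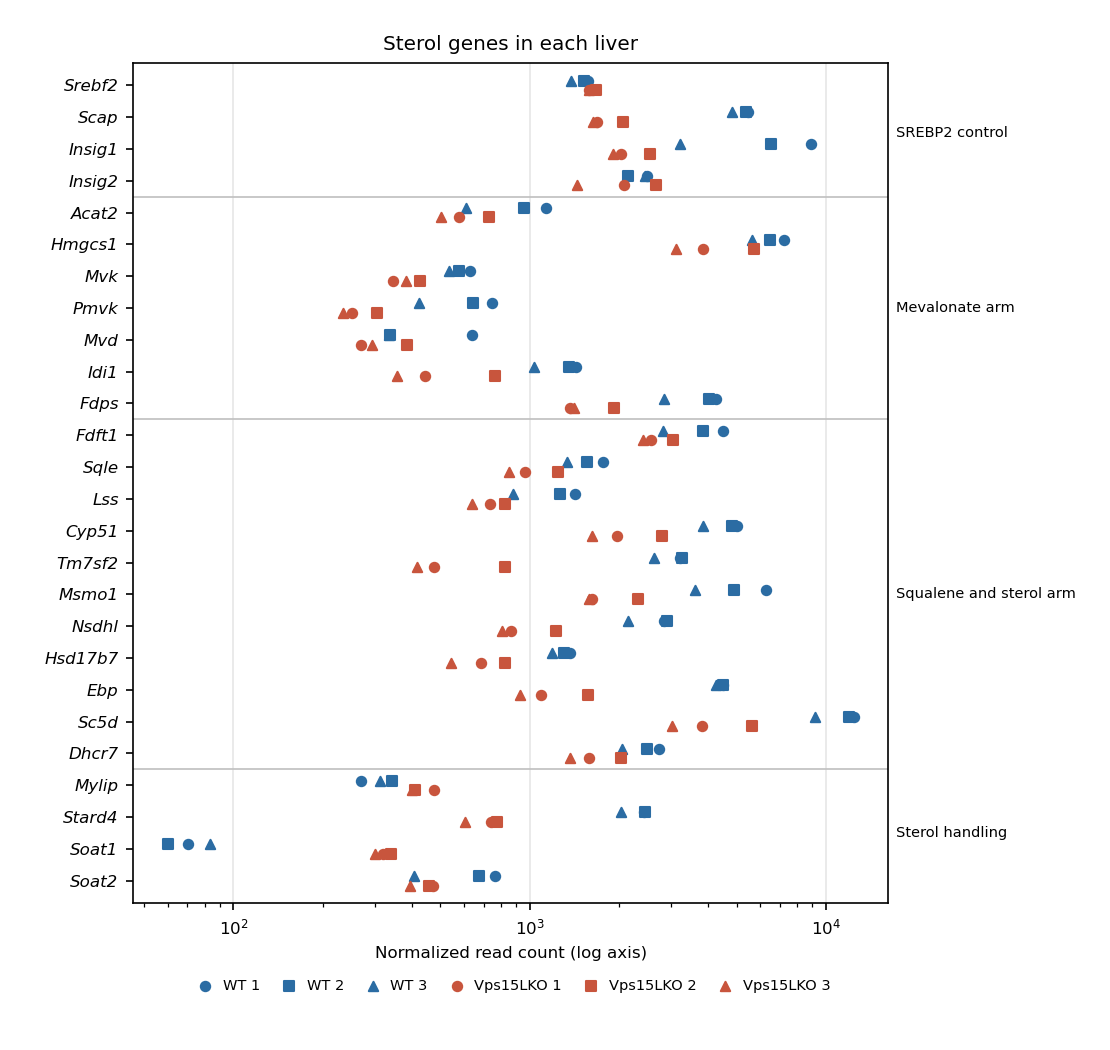
Normalized read count (horizontal log axis) of each of the 26 genes in each liver, with WT livers in blue and Vps15LKO livers in red, a symbol for each replicate number, and genes grouped by role. Most rows show the red symbols to the left of the blue ones, with the red square (Vps15LKO 2) the rightmost red symbol in 24 of 26 rows; Srebf2, Mylip and Soat1 run the other way.

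**Figure D2:**
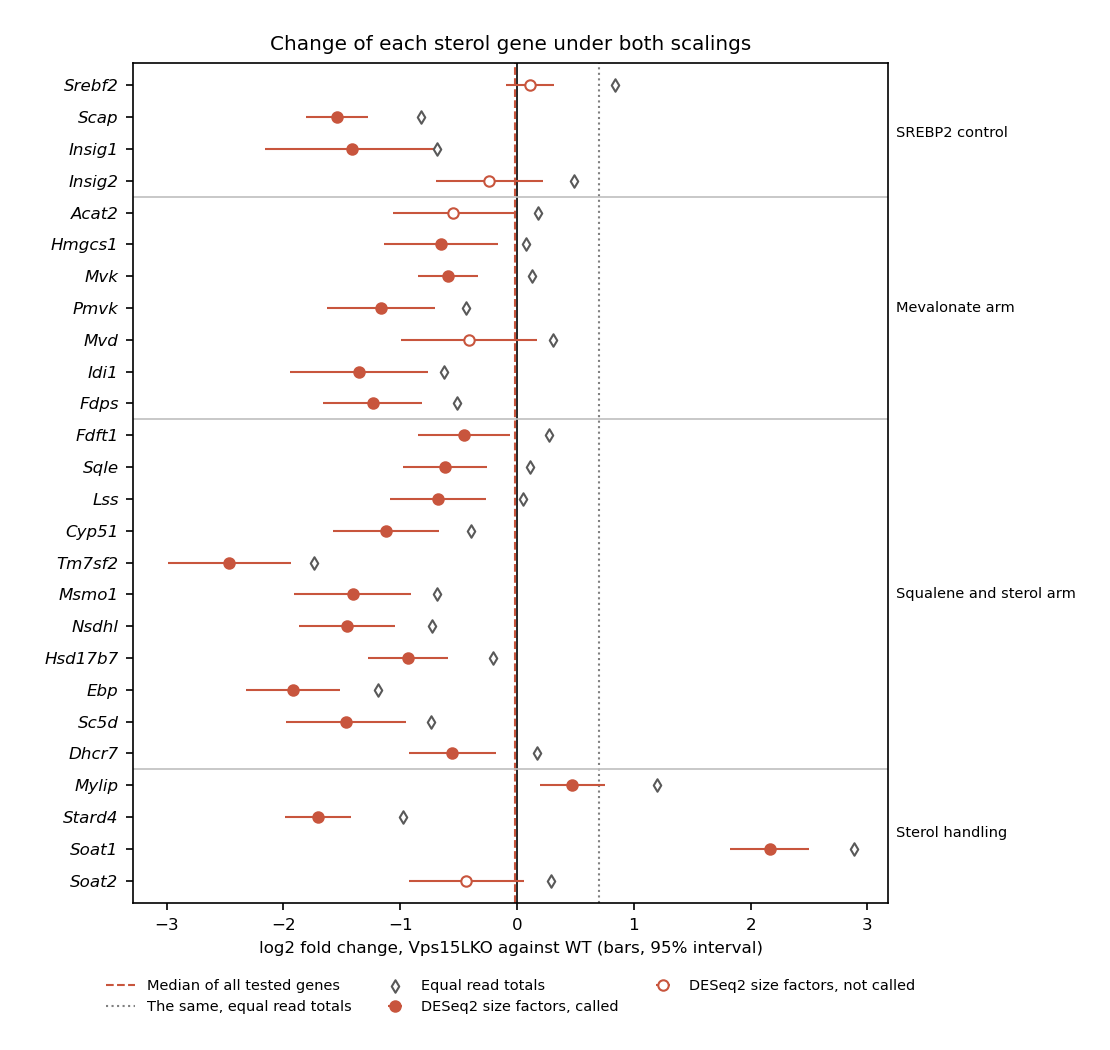
log2 fold change (horizontal axis) of the 26 genes, with circles and bars for the limma estimate and its 95% interval on DESeq2-normalized counts (filled when called), and diamonds for the same comparison with equal read totals. The dashed and dotted lines mark the median of all tested genes in each case, at −0.017 and 0.70, and 23 of the 26 circles lie to the left of 0.

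The promoters of these genes were searched for motifs of the factors named above and of the clock, in the RefSeq windows from 250 bases before to 50 bases after a start site (GRCm38.p6). Windows were found for 21 of the 26 genes, whereas Soat2, Fdft1, Fdps, Stard4 and Sqle had no entry. Both strands were searched for TCACNCCAC, a form of the sterol regulatory element to which SREBPs bind, and for the looser TCANNCCAC, which contains it. CCAAT, the box of NF-Y, which acts with SREBPs, and CACGTG, the E-box of Bmal1-Clock, which SREBPs can also bind, were searched likewise. CCAAT was present in 19 of 21 genes, against 41.1% of the 27025 genes with a window, expressed or not. CACGTG was present in 5 (Dhcr7, Hsd17b7, Insig1, Sc5d and Scap), against 8.09% of genes. TCACNCCAC was present in Hmgcs1 alone, against 1.44% of genes, and TCANNCCAC in Hmgcs1 and Mylip, against 4.78%. Many working sterol regulatory elements differ from these letters, and a match is not a measured binding site. The 250 bases before the start are printed for Hmgcs1 (chr13:119690101-119690350, plus strand), the sole gene with TCACNCCAC, and for Scap (chr9:110333106-110333355, plus strand), Insig1 (chr5:28071162-28071411, plus strand) and Sc5d (chr9:42264301-42264550, minus strand), which hold an E-box here. Those of Tm7sf2 (chr19:6067851-6068100, minus strand) and Ebp (chrX:8193513-8193762, minus strand) are printed because these enzymes had the lowest log2 fold changes of the 26 genes. Each runs 5′ to 3′ on the gene's strand, and capitals mark matches to the 4 motifs, CCAAT appearing as ATTGG where it lies on the opposite strand.
Hmgcs1: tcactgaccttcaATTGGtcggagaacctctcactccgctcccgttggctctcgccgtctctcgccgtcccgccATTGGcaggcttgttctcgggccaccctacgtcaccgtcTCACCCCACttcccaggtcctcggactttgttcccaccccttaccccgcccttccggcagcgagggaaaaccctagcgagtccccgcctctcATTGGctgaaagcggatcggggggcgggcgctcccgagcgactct
Scap: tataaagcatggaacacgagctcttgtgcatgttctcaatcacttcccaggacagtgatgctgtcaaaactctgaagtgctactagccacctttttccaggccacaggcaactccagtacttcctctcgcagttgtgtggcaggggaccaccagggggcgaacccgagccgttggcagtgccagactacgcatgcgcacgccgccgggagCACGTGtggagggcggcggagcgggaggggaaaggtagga
Insig1: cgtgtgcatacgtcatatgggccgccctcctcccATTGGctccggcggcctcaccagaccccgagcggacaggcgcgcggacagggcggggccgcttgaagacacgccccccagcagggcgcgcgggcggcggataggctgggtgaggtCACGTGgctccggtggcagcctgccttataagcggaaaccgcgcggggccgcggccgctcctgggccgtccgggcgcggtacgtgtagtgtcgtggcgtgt
Sc5d: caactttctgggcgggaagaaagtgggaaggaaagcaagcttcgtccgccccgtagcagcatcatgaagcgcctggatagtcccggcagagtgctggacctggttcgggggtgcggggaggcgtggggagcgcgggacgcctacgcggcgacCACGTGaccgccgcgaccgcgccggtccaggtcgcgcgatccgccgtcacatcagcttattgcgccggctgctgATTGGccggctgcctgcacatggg
Tm7sf2: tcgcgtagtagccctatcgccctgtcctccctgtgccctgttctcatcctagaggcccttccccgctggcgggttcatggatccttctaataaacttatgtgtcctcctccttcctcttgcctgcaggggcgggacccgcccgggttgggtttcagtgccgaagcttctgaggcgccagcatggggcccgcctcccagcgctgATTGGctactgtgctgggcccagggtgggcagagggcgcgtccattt
Ebp: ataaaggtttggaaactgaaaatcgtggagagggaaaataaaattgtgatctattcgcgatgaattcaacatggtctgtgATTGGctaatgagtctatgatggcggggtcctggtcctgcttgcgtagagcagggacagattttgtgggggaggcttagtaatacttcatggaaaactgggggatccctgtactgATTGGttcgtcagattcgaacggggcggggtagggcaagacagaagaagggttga
The Scap window holds the E-box and no CCAAT, whereas Tm7sf2 and Ebp hold CCAAT and no E-box. Scap has a second RefSeq start, in whose window the same E-box lies after the start.

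Of the 4 SREBP2 control genes, Scap and Insig1 were called lower, and Srebf2 and Insig2 were not called. Srebf2 (chromosome 15, 82147181 to 82205379) had normalized counts of 1581, 1529 and 1383 in the WT against 1589, 1677 and 1584 in the Vps15LKO livers. The Vps15LKO livers were all slightly above the WT livers, but the difference did not pass the test (log2 fold change 0.11, 95% interval −0.092 to 0.32, adjusted p = 0.293 in limma). With equal read totals it was 0.84 and called higher, against 0.70 for the median gene under that scaling, and with quantile normalization it was 0.46 and called higher. Scap (chromosome 9, 110333288 to 110384950), the sterol sensor and escort, had 5468, 5377 and 4833 in the WT against 1695, 2059.9 and 1637 in the Vps15LKO livers. Every Vps15LKO liver was below the lowest WT liver, and the genotypes were far apart against their spread (log2 fold change −1.54, SE 0.12, adjusted p = 1.02e-05 in limma). Scap was also called lower with equal read totals (−0.82). Because both transcripts come from the same libraries, their ratio needs no scaling. The log2 ratio of Scap to Srebf2 was 1.80 ± 0.012 (SD, n = 3) in WT and 0.15 ± 0.13 in Vps15LKO livers, a difference of −1.66 (2-sided exact permutation p = 0.1, the smallest that 3 against 3 livers allow). On the opposite strand 5830462I19Rik shares 985 bp of exon with Scap and had 4214 reads against 19089, and whether the counting used strand is not given in the sources used here.

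Insig1 (chromosome 5, 28071363 to 28078662), the Insig that SREBP2 induces, had 8933, 6544 and 3219 in the WT against 2029, 2552 and 1919 in the Vps15LKO livers. The WT livers spanned a wide range, with WT 3 the lowest, yet each remained above every Vps15LKO liver (log2 fold change −1.41, SE 0.32, adjusted p = 0.00441 in limma). The log2 fold change lay between −1.83 without WT 3 and −1.09 without WT 1 and was called each time a liver was left out. Insig2 (chromosome 1, 121304353 to 121332589) had 2493, 2145 and 2448 in the WT against 2077, 2665 and 1447 in the Vps15LKO livers. Its livers overlapped, Vps15LKO 2 being the highest of the 6 and Vps15LKO 3 the lowest, and it was not called (log2 fold change −0.24, 95% interval −0.69 to 0.22, adjusted p = 0.321 in limma). It was called lower when Vps15LKO 2 was left out (log2 fold change −0.44), whereas its log2 fold change rose as far as −0.0023 when other single livers were left out. Insig2 was called higher with equal read totals (0.49), and its log2 fold change was 0.21 with quantile normalization. The log2 ratio of Insig1 to Insig2 was 1.84, 1.61 and 0.40 in WT and −0.034, −0.063 and 0.41 in Vps15LKO livers. WT 3 was thus within the range of the Vps15LKO livers, and the difference of −1.18 had an exact 2-sided permutation p of 0.2. Adjusted over the 5 ratios tested, this p was 0.2, and for the other 4 ratios 0.125, so none could pass.

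In the mevalonate arm 5 of 7 enzymes were called lower, against 33.0% of all genes, and none higher, with a median log2 fold change of −0.65. With equal read totals 3 of 7 were called lower and none higher, against 11.1% and 66.7% of all genes. The median was then 0.078, so its sign depends on the scaling. Acat2, the cytosolic thiolase that joins acetyl-CoA units, had 1135, 961 and 612 in the WT against 579.6, 732 and 504 in the Vps15LKO livers. WT 3 lay between Vps15LKO 1 and Vps15LKO 2, and Acat2 was not called (log2 fold change −0.55, 95% interval −1.07 to −0.028, adjusted p = 0.0598 in limma; 0.18 with equal read totals, so the sign depends on the scaling). Acat3 matches it with 97.7% identity over 1477 bp and had 14715 reads against 4453, so the count of Acat2 is uncertain. Hmgcs1, the HMG-CoA synthase whose promoter is printed above, had 7225, 6503 and 5641 in the WT against 3854, 5739.7 and 3111 in the Vps15LKO livers. Vps15LKO 2 reached the level of WT 3, and although Hmgcs1 was called lower (log2 fold change −0.65, SE 0.21, adjusted p = 0.0246 in limma), the call was lost without WT 1, WT 2, Vps15LKO 1 or Vps15LKO 3. Its log2 fold change was 0.078 with equal read totals and 0.086 with quantile normalization, so its direction depends on the scaling. An antisense gene, Gm48342, shares 557 bp of exon with Hmgcs1.

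The enzymes that follow phosphorylate mevalonate and turn it into isoprenoid units. Mvk, mevalonate kinase, went from 581 ± 48.8 to 385 ± 39.4 normalized counts (mean ± SD, n = 3 in each genotype; log2 fold change −0.59, adjusted p = 0.00152 in limma). Pmvk, the next kinase, fell from 604 ± 164 to 264 ± 36.7 (log2 fold change −1.16, adjusted p = 0.000979 in limma). Both separated the genotypes fully, but with equal read totals Pmvk alone of the pair was called lower (−0.44 against 0.13 for Mvk). Mvd, the decarboxylase that yields isopentenyl diphosphate, had 639, 339 and 334 in the WT against 270.3, 387 and 293 in the Vps15LKO livers. WT 1 stood apart from the other WT livers, which lay within the Vps15LKO range, and Mvd was not called (log2 fold change −0.41, 95% interval −0.99 to 0.17, adjusted p = 0.179 in limma). Its sign also depended on the scaling, with 0.31 at equal read totals. Idi1, the isomerase of isoprenoid units, had 1432, 1363 and 1033 in the WT against 444, 762 and 356 in the Vps15LKO livers. All 3 Vps15LKO livers were below WT, with Vps15LKO 2 nearest (log2 fold change −1.35, SE 0.26, adjusted p = 0.00162 in limma; −0.63 with equal read totals). Fdps, which joins these units to farnesyl diphosphate, the branch point to sterols and to protein prenylation, went from 3711 ± 754 to 1569.8 ± 312 (log2 fold change −1.24, adjusted p = 0.000396 in limma; −0.51 with equal read totals). Gm43738, on the same strand, shares 1124 bp of exon with Fdps and held 14947 reads against 14716, with a log2 fold change of −1.17.

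From squalene onwards all 11 enzymes were called lower, against 33.0% of all genes, with a median log2 fold change of −1.12. In 10 of them (all but Fdft1) the genotypes did not overlap, against 36.8% of all genes lower without overlap. The first 3 steps, and the last, had the smallest log2 fold changes. With equal read totals 6 of 11 were called lower (median −0.40), against 11.1% of all genes. With quantile normalization 8 were (median −0.64), against 37.6%. Fdft1, squalene synthase and the first enzyme committed to sterols, had 4483, 3841 and 2829 in the WT against 2574, 3044 and 2422 in the Vps15LKO livers. WT 3 lay between Vps15LKO 1 and Vps15LKO 2, and the call was close to the threshold (log2 fold change −0.45, SE 0.17, adjusted p = 0.0438 in limma). Fdft1 was called in 10 of 22 alternative settings. It kept its call in the fewest settings of the 16 enzymes called, and 774 bp of its exons overlap Ctsb on the opposite strand, which had 158002 reads against 19106 and was itself higher (log2 fold change 0.79). Sqle, squalene epoxidase, went from 1560.1 ± 217 to 1023 ± 206 (log2 fold change −0.62, adjusted p = 0.00779 in limma). Lss, which closes the ring to lanosterol, went from 1192 ± 283 to 734 ± 92.1 (log2 fold change −0.68, adjusted p = 0.00934 in limma). With equal read totals, none of these 3 was called and their log2 fold changes were slightly positive, at 0.27, 0.11 and 0.048. With quantile normalization Fdft1 (0.11) and Sqle (−0.34) were not called either, whereas Lss was called lower (−0.48).

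The steps after lanosterol held the largest falls. Cyp51, which starts the removal of methyl groups from lanosterol, had 5024, 4805 and 3849 in the WT against 1979, 2805 and 1625 in the Vps15LKO livers. All Vps15LKO livers were below WT (log2 fold change −1.12, SE 0.20, adjusted p = 0.00102 in limma). Tm7sf2 (chromosome 19, 6062821 to 6068373), the reductase that acts on the product of Cyp51, had 3211, 3273 and 2631 in the WT against 476, 824 and 418 in the Vps15LKO livers. Its Vps15LKO mean was 18.8% of the WT mean, the lowest of the 26 genes (log2 fold change −2.46, SE 0.23, adjusted p = 3.16e-05 in limma). It was still −1.74 with equal read totals. Vps51 shares 532 bp of exon with Tm7sf2 on the same strand and was not called (log2 fold change −0.13). Lbr, a protein of the nuclear envelope that carries the same reductase activity and was chosen after its value was seen, rose from 171 ± 25.1 to 252 ± 14.8 (log2 fold change 0.56, adjusted p = 0.00595 in limma).

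Msmo1, Nsdhl and Hsd17b7 together remove the remaining methyl groups. Msmo1, the oxidase of the set, had 6296, 4916 and 3629 in the WT against 1620.5, 2331 and 1589 in the Vps15LKO livers (log2 fold change −1.41, adjusted p = 0.000487 in limma). Nsdhl, the dehydrogenase, went from 2637 ± 418 to 968 ± 227 (log2 fold change −1.46, adjusted p = 0.000132 in limma). Hsd17b7, the ketone reductase, went from 1289 ± 93.6 to 684 ± 142 (log2 fold change −0.93, adjusted p = 0.00061 in limma). Msmo1 and Nsdhl were also called lower with equal read totals (−0.68 and −0.73), whereas Hsd17b7 was not (−0.21). The last 3 enzymes rearrange and reduce double bonds. Ebp (chromosome X, 8185329 to 8193512), the sterol isomerase, had 4509.6, 4481 and 4264 in the WT against 1093, 1569 and 927 in the Vps15LKO livers. The WT livers varied little (coefficient of variation 3.04%), and the Vps15LKO mean was 27.1% of theirs (log2 fold change −1.92, SE 0.17, adjusted p = 2.7e-05 in limma; −1.19 with equal read totals). Sc5d (chromosome 9, 42251595 to 42264256), the desaturase after Ebp, had 12419, 11976 and 9206 in the WT against 3832, 5621 and 3034 in the Vps15LKO livers. Every Vps15LKO liver was below WT (log2 fold change −1.46, SE 0.22, adjusted p = 0.000472 in limma; −0.74 with equal read totals). Dhcr7, the reductase that completes cholesterol, had 2745, 2491 and 2053 in the WT against 1585, 2032 and 1372 in the Vps15LKO livers, Vps15LKO 2 lying just under WT 3 (log2 fold change −0.56, SE 0.16, adjusted p = 0.0148 in limma). Dhcr7 kept its call in 17 of 22 alternative settings. The call was lost without WT 1, without Vps15LKO 1, at a fold threshold of 1.5, with quantile normalization (log2 fold change −0.14) and with equal read totals (0.17). Exons of Idi1, Lss and Cyp51 overlap genes on the opposite strand by 323, 381 and 166 bp.

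The order of the transcripts by level was not the same in both genotypes. Per kb of exon, Sc5d was the highest of the 26 genes in WT, with 2302 normalized counts, followed by Insig1 (2015), Ebp (1913) and Hmgcs1 (1405), as means of the 3 livers. The place of Insig1 varied among the WT livers, above Sc5d in WT 1 and below Ebp and Hmgcs1 in WT 3. In Vps15LKO livers Hmgcs1 was first, with 922 normalized counts per kb, followed by Sc5d (855), Insig1 (700.5) and Fdft1 (634). Hmgcs1 was above Sc5d in each of the 3 Vps15LKO livers and below it in each of the 3 WT livers. Tm7sf2 went from rank 11, with 690.1 normalized counts per kb, to rank 23, with 130.1.

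The sterol handling genes moved in both directions. Mylip, a ubiquitin ligase induced by LXR that sends lipoprotein receptors to the lysosome, had 270.5, 344 and 313 in the WT against 476, 409 and 401 in the Vps15LKO livers. All 3 Vps15LKO livers were above WT (log2 fold change 0.47, SE 0.12, adjusted p = 0.00832 in limma), and Mylip was also called higher with equal read totals. The rise was under a fold of 1.5. Stard4 (chromosome 18, 33199355 to 33213862), a soluble carrier that moves cholesterol between membranes and is induced by SREBP2, had 2434, 2447 and 2034 in the WT against 743, 776 and 607 in the Vps15LKO livers. Its Vps15LKO mean was 30.7% of the WT mean (log2 fold change −1.70, SE 0.12, adjusted p = 8.75e-06 in limma; −0.98 with equal read totals). Mylip and Stard4, on the opposite sides of sterol control, differed in log2 ratio by 2.18 between genotypes, whereas the log2 ratio of Mylip to Srebf2 differed by 0.36, from −2.28 ± 0.23 in WT to −1.92 ± 0.16 in Vps15LKO livers (SD, n = 3; exact 2-sided permutation p = 0.1 for each, the smallest possible).

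Soat1 (chromosome 1, 156424525 to 156474331) and Soat2 esterify cholesterol for storage. Soat1 is the form of macrophages and many other cells, and Soat2 is that of hepatocytes and enterocytes. Soat1 had 70.3, 60.0 and 83.6 in the WT against 320.0, 339.5 and 301 in the Vps15LKO livers, and had the lowest level per kb of exon among the 26 genes in both genotypes. Every Vps15LKO liver was far above WT (log2 fold change 2.16, SE 0.15, adjusted p = 6.89e-06 in limma; 2.88 with equal read totals). Soat2 had 762, 676 and 406 in the WT against 471, 457 and 394 in the Vps15LKO livers. Only Vps15LKO 3 was below all WT livers, and Soat2 was not called (log2 fold change −0.43, 95% interval −0.93 to 0.06, adjusted p = 0.106 in limma). Soat2 was called lower when WT 3 was left out (log2 fold change −0.71), and its sign turned with equal read totals (0.29). The log2 ratio of Soat1 to Soat2 went from −3.07 ± 0.69 in WT to −0.46 ± 0.088 in Vps15LKO livers (SD, n = 3; exact 2-sided permutation p = 0.1, the smallest possible). Macrophage markers moved with Soat1: 12 of 14 were called higher, 0 lower and 2 not called. Among the markers found in resident Kupffer cells, Vsig4, Cd5l, Marco and Adgre1 were called higher (log2 fold changes 0.99, 1.39, 1.08 and 1.46), whereas Clec4f and Timd4 were not called (0.40 and −0.62). Together the 14 markers took 410.1 to 502 RPM in WT and 2713 to 3055 RPM in Vps15LKO libraries. The part of these cells in the rise of Soat1 was not tested.

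Within each genotype the synthesis enzymes varied together from liver to liver. WT 3 was the lowest WT liver for 18 of 18 enzymes, and Vps15LKO 2 was the highest Vps15LKO liver for 18 of 18. Over all tested genes these livers held those places in 38.3% and 41.4% of genes. The median enzyme lay 0.18 and 0.079 log2 units above its genotype mean in WT 1 and WT 2 and −0.27 from it in WT 3. In Vps15LKO livers the corresponding medians were −0.081, 0.31 and −0.24. Much the same order was seen with equal read totals, where WT 3 was lowest for 16 and Vps15LKO 2 highest for 17 of the 18 enzymes. The shares over all tested genes were then 27.2% and 20.4%. On DESeq2-normalized counts hepatocyte markers moved the same way, 6 of 8 being lowest in WT 3 and 8 of 8 highest in Vps15LKO 2. WT 3 also held 20.02 RPM of proliferation markers, against 8.09 and 6.52 in WT 1 and WT 2. Vps15LKO 2 held the fewest reads of cholangiocyte markers, 838 RPM against 1148 and 1859 in Vps15LKO 1 and Vps15LKO 3. Over all tested genes WT 3 lay farther from the other WT livers (mean chi-square per gene of 34.0 and 29.7) than these lay from each other (14.6), and Vps15LKO 2 and Vps15LKO 3 were farthest apart (40.8). The part of these differences in the order of the enzymes was not tested. The 3 livers of a genotype were collected at 1 ZT, and the sources used here give no order of collection. Leaving out WT 3 or Vps15LKO 2 gave 21 of 26 genes called lower each time, and leaving out both gave 22, with 2 higher in each case. The last of these settings was chosen after these values had been seen. With all livers 33.0% of all genes were called lower and 33.5% higher, and the shares with livers left out are not given here.

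**Figure D3:**
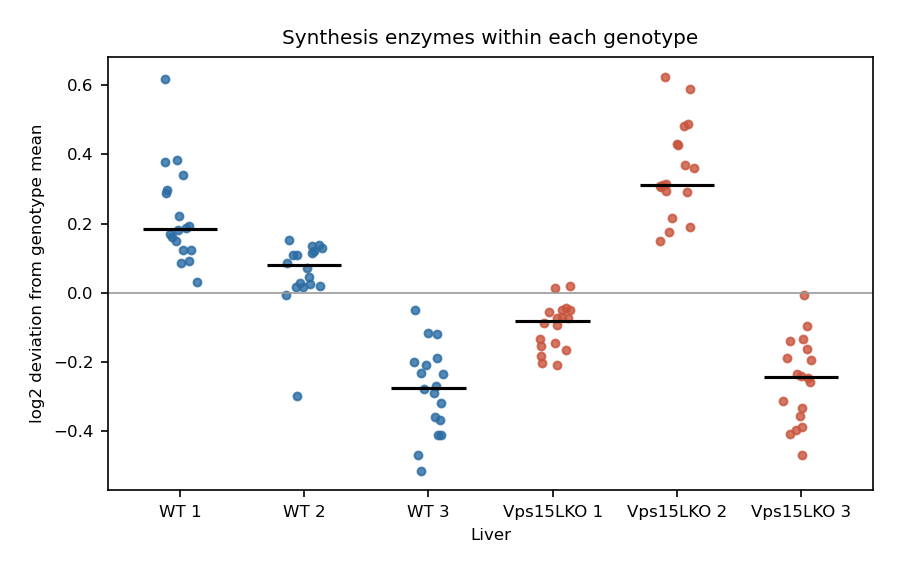
Deviation of each of the 18 synthesis enzymes (points) from the mean of its genotype, in log2(normalized count + 1), for each liver, with a bar at the median. All 18 points of WT 3 lie below 0 (median −0.27) and all 18 of Vps15LKO 2 above 0 (median 0.31).

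The enzymes were also set beside the hepatocyte markers of the same liver. The 18 enzymes together took 2635, 2530.4 and 2089 RPM in the WT libraries and 1717, 2226 and 1608 RPM in the Vps15LKO libraries, where the mean was 76.5% of that in WT. Vps15LKO 2 lay above WT 3, so the totals overlapped. The mevalonate arm held 93.0% of its WT mean and the squalene and sterol arm 70.9%. The mevalonate totals overlapped, with 681, 637 and 525 RPM in WT and 519, 701 and 493 RPM in Vps15LKO libraries. Hmgcs1 (log2 fold change 0.078 with equal read totals) held the most reads of that arm in every liver. Pmvk, Idi1 and Fdps were called lower with equal read totals and the rest of the arm was not called, so its total does not stand for each enzyme. For every 100 reads of the 8 hepatocyte markers there were 2.01, 1.99 and 1.67 enzyme reads in WT and 2.34, 2.68 and 2.56 in Vps15LKO livers. All Vps15LKO livers were higher on this measure, and the same held without Alb (8.43, 8.06 and 6.59 against 10.8, 13.2 and 11.3). Of the 18 enzymes, 16 had a log2 fold change above the median of the hepatocyte markers (−1.48), and of the 26 genes 22 did. Tm7sf2, Ebp, Stard4 and Scap were the genes below the marker median. The median over all tested genes (−0.017) also lies above it, so most genes do too. The share of all genes above it was not counted, and these counts are not a trait of the enzymes. The medians of the enzymes and of the markers were −0.30 and −0.76 with equal read totals, but −0.62 and −0.46 with quantile normalization, where the enzymes lay below the markers. Quantile normalization gives genes of the same rank the same value in every library, which restricts the most abundant genes. Alb then had a log2 fold change of −4.2e-15, against −1.48 on DESeq2-normalized counts. That setting therefore cannot decide the order of enzymes and markers. These values describe the libraries and do not separate a change in cell number from one in expression.

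Genes around the pathway were read from 5 lists of 46 genes in all, of which 26 were called lower, 8 higher and 12 not called, with a median log2 fold change of −0.42. The counts of these lists stand against 33.0% of all tested genes called lower and 33.5% higher. With equal read totals 11 of the 46 were called lower and 23 higher, against 11.1% and 66.7% of all genes. Among 10 genes for SREBP processing and the sterol-dependent turnover of proteins in the endoplasmic reticulum, 5 were lower and 2 higher, with a median of −0.44. The balance turned to 2 lower and 5 higher (median 0.29) with equal read totals. Srebf1, which encodes the SREBP of fatty acid synthesis, fell from 5163 ± 1039.8 to 2158 ± 146 normalized counts (log2 fold change −1.24, adjusted p = 0.000148 in limma). The ubiquitin ligase Rnf139 and the factor Aup1 were also lower (log2 fold changes −0.82 and −0.83), but were not called with equal read totals (−0.092 and −0.10). Mbtps2, also chosen after its value was seen, encodes a protease that releases SREBPs in the Golgi and was higher (log2 fold change 0.73, adjusted p = 0.000716 in limma).

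The 8 genes that supply electrons or assist the sterol enzymes included 6 called lower and 1 called higher (Lbr), with a median log2 fold change of −1.11. Sec14l2, a lipid-binding protein that stimulates squalene epoxidase, fell from 12372 ± 209.8 to 3478 ± 1339.8 (log2 fold change −1.90, adjusted p = 0.000157 in limma). Cyb5b, a cytochrome b5, Erg28, a scaffold of the demethylation complex, and Pgrmc1, a partner of Cyp51, had log2 fold changes of −1.70, −1.23 and −1.13. For comparison, 4 of the 9 genes of the non-sterol isoprenoid branches were lower, against 33.0% of all genes, and 1 was higher, and their median was −0.013. Pdss2, for the tail of coenzyme Q, changed most (log2 fold change −0.99), whereas Fnta, Coq2 and Dhdds lay between −0.47 and −0.36 and turned positive with equal read totals. With equal read totals the medians of these lists were −0.38 and 0.71, the second at the median of all genes. With quantile normalization they were 0.027 and −0.27, and 3 of the 8 electron supply genes were called lower, against 37.6% of all genes. Pgrmc1 (0.049), Cyb5a (0.0058) and Cyb5r3 (0.14) were then not called, so the fall of this list depends on the scaling. The difference between the lists was not tested.

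Of 7 LXR and cholesterol efflux genes, 5 were lower and 1 higher, with a median of −0.69. Scaled to equal read totals, 1 was lower and 2 higher (median 0.039). Abcg5 and Abcg8, the pair that exports sterols into bile, had log2 fold changes of −0.99 and −1.51, and Nr1h3, which encodes LXRα, of −0.75. At equal read totals Abcg8 was still called lower (−0.79), whereas Abcg5 (−0.26) and Nr1h3 (−0.02) were not called. Abcg1, an exporter strongly expressed by macrophages, rose from 211 ± 13.9 to 942 ± 10.3 (log2 fold change 2.15, adjusted p = 7.47e-07 in limma). The macrophage markers given beside Soat1 moved with Abcg1 too, and their part was not tested. Of 12 genes for lysosomal and intracellular cholesterol transport, 6 were lower and 3 higher, with a median of −0.25. The balance turned to 3 lower and 8 higher with equal read totals (median 0.47), and was 4 lower and 4 higher with quantile normalization. Gramd1b, a carrier from the plasma membrane, rose from 59.4 ± 6.04 to 341 ± 46.6 and its relative Gramd1c fell from 480.3 ± 12.3 to 163 ± 40.5 (log2 fold changes 2.50 and −1.58). Npc2, which binds cholesterol inside lysosomes, was higher and Osbpl1a lower (log2 fold changes 1.25 and −1.24). In the same livers 12 of 14 macrophage markers and all stellate and cholangiocyte markers were called higher, and their part in the rises of Gramd1b and Npc2 was not tested.

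**Figure D4:**
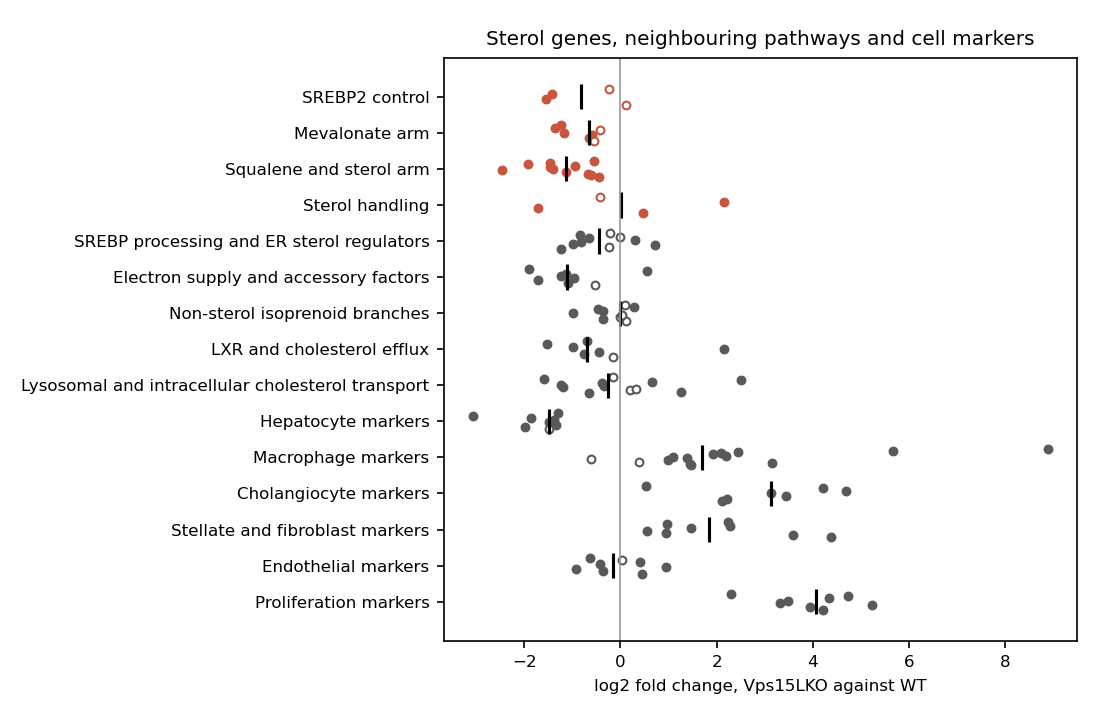
log2 fold change (horizontal axis, Vps15LKO against WT) of each gene in the 4 groups of cholesterol genes (red), 5 neighbouring lists and 6 lists of cell markers (grey), filled when called in limma, with a bar at each list's median. The squalene and sterol arm (median −1.12) lies beside the electron supply list (−1.11) and above the hepatocyte markers (−1.48). This order does not hold with quantile normalization, which restricts the most abundant genes (medians −0.64, 0.027 and −0.46 for the same lists). Cholangiocyte, stellate and proliferation markers lie to the right of 0, as do the macrophage markers other than Timd4 (−0.62).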

How the data were processed

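RNA was extracted from whole liver, and libraries were made from polyA RNA with digestion of the U-labelled second strand. The authors used SOAPnuke to filter the reads, HISAT2 to align them to GRCm38, featureCounts to count them by gene and DESeq2 to scale the counts. Versions of the aligner and counter, and the strand setting, are not given in the sources used here. Each deposited value is a signal: a gene's reads divided by the size factor of its library. In each library 100% of values were whole multiples of 1 step (tolerance 0.001 reads), so whole reads were recovered. On these reads edgeR called 4822 genes lower and 5383 higher.

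Groups came from the genotype labels. Genes that reached 20 normalized counts in 3 or more livers were compared on log2(value + 1) with limma 3.58.1 (eBayes, trend) under R 4.3.3, and p-values were adjusted by Benjamini-Hochberg over 15430 genes. Both DESeq2 1.42.0 and edgeR 4.0.16 served as alternatives, beside other scalings, filters and pseudocounts, limma voom, replicate number as a block, and each liver left out in turn. Ratios within a liver were compared by exact permutation. Symbols, exons and coordinates came from GENCODE M21, which matched 55141 genes, similar transcripts were searched with BLAST 2.17.0+ (at least 95% identity over 200 bp), and promoters came from RefSeq. Other steps used Python 3.11.15, numpy 2.4.6, pandas 2.3.3 and matplotlib 3.10.9.

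Genes named are all 26 cholesterol genes, Pik3r4 and, of each neighbouring list, at most the 4 called genes with the largest absolute log2 fold change. Lbr, Mbtps2, Cyb5a, Cyb5r3, the cell markers named and genes that share sequence with a cholesterol gene fall outside this rule. The members and lists were chosen with earlier results of these data known. Other genes of the pathway were not analysed here.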

Additional observations from a re-analysis of the deposited data

How the results depend on the processing

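The scaling mattered most. With equal read totals in every library, 12 of the 26 cholesterol genes were called lower and 4 higher, their median log2 fold change was −0.079, and 1712 of all tested genes were called lower and 10299 higher. Genes whose direction then reversed were Insig2 (0.49), Acat2 (0.18), Hmgcs1 (0.078), Mvk (0.13), Mvd (0.31), Fdft1 (0.27), Sqle (0.11), Lss (0.048), Dhcr7 (0.17) and Soat2 (0.29). With quantile normalization Insig2 (0.21), Hmgcs1 (0.086) and Fdft1 (0.11) reversed, and upper-quartile scaling moved the median of all genes by 0.12 without turning any of the 26. With a fold of at least 1.5 only 1 of the 26 was called higher. With both WT 3 and Vps15LKO 2 left out, a setting chosen after seeing the data, the median was −1.06, and Acat2, Mvd and Soat2 were also called lower (log2 fold changes −0.95, −0.72 and −0.74). Leaving out single livers gave 16 to 21 genes called lower, 2 called higher and medians of −0.98 to −0.68. In all, 13 of the 26 genes kept call and direction in all 22 alternatives, and 16 in all but equal read totals. The cause of these differences was not tested, beyond the construction of each setting. With replicate number as a replicate block, 21 genes were called lower and 2 higher, Acat2 (adjusted p = 0.0125 in limma) and Soat2 (adjusted p = 0.03 in limma) being added. The numbers do not pair the livers: deviations of same-numbered livers correlated at −0.0099, −0.011 and 0.049, and not every liver correlated best with its own number. Of the 26 genes Soat1 rests on the fewest reads, 48 to 62 per WT liver. Shares of all genes called are not given here for the settings with livers left out, a fold of 1.5 or a block.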
